A study of Arabidopsis thaliana with 18 samples.

Results

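Cytokinin response factors (CRFs) are plant transcription factors of the AP2/ERF family. Cytokinin is a hormone of cell division, shoot growth and delayed ageing. It is sensed by membrane histidine kinases, and the signal passes through phosphotransfer proteins to the nucleus, where type-B response regulators switch on target genes. The CRFs form a side branch of this pathway: several *CRF* genes are induced by cytokinin through the type-B regulators, and the proteins move into the nucleus when the hormone is applied. Chromatin at *CRF1* to *CRF10* was examined here for peaks of BRIP1 and BRIP2, a pair of homologous subunits of the SWI/SNF remodelling complexes built around the ATPase BRAHMA (BRM). Such complexes use ATP to move or evict nucleosomes. The 10 genes were taken by their RefSeq symbols from the 27444 protein-coding genes of the TAIR10.1 annotation. The family was chosen by its peaks in these same peak lists, so the numbers of members with a peak are a description and carry no test.

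The measurements were chromatin immunoprecipitations followed by sequencing (ChIP-seq) with an antibody to GFP (ab290), from whole *Arabidopsis thaliana* seedlings 14 days old. One group carried a BRIP1-GFP fusion and the other a BRIP2-GFP fusion, with 2 replicate libraries each, and both were in *brm-1* plants, which lack functional BRM. The promoters of the fusions, the number of transgenic lines and the accession of the plants are not given in the sources used here. The remaining 14 of 18 samples of the series were not analysed here, and what the loss of BRM did is not measured. Among the sample titles none names an anti-GFP library from plants without a fusion, and signal that needs no fusion cannot be told apart from binding. In the sample labels, BRIP1 replicate 2 has the antibody entry "none" although its title calls it an immunoprecipitate. The number of members with a peak, the differences between the proteins and the count over the pathway are also given without this library. Conversely, the GFP antibody is entered for the BRIP2-GFP input of *brm-1* plants. Whether that input was the control of the BRIP2 lists is not stated, so what the BRIP2 folds are relative to is uncertain.

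The BRIP1 libraries held 3637 and 5343 peaks on the nuclear chromosomes and the BRIP2 libraries 7877 and 6288. Each peak has a summit and a fold, the number of fragments piled up there over the number in a local control, which was taken from the authors' peak caller. Read totals are unknown. The most common control recovered from a list, here called its background, held at 77 to 85% of its peaks. It was higher in the BRIP1 libraries (31.5 and 41.2 fragments) than in those of BRIP2 (29.7 and 23.2). At the *CRF* peaks described below, the control was 1.0 to 1.09 times the background. Their folds therefore rest on an almost constant control within each library. A gene was given a peak when the summit lay from 3000 bp upstream of its transcription start site (TSS) to 1000 bp past its 3′ end. Of 23145 nuclear peaks, 42 fell in a *CRF* window: 8 and 11 of them from BRIP1 and 11 and 12 from BRIP2. Peaks of different libraries that overlapped by at least 1 bp were joined into a region.

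Some of the sequences under these peaks are shown first because the values below refer to them. The promoter regions of *CRF2* and *CRF10*, less than 1000 bp from the TSS, and the region past the 3′ end of *CRF10* hold neither a G-box nor one of the 3 longest runs of bases shared between members. The G-box, CACGTG, is the DNA word bound by many basic helix-loop-helix and bZIP factors of light and stress signalling. It lay within 100 bp of the region centre upstream of *CRF3*, *CRF4*, *CRF5* and *CRF6*, starting 293, 738, 234 and 241 bp before the TSS. For *CRF6* the distance is from the start of the gene record, which lies 182 bp before its annotated transcript, and the G-box is 423 bp before that transcript. The G-box of *CRF5* lies inside the short neighbouring gene AT2G46308. These 4 stretches of TAIR10.1 are printed in the direction of the *CRF* gene, with the G-box in capitals.
*CRF3* promoter, chr5:21619549-21619594, minus strand: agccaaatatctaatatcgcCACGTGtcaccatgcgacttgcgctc
*CRF4* promoter, chr4:13911708-13911753, minus strand: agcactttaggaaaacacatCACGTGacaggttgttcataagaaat
*CRF5* promoter, chr2:19011208-19011253, plus strand: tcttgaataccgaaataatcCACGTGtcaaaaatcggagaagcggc
*CRF6* promoter, chr3:22804737-22804782, plus strand: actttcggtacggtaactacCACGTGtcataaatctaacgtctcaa

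The G-boxes of *CRF3*, *CRF5* and *CRF6* were followed by the same bases, as CACGTGTC, while that of *CRF4* read CACGTGAC. Read on both strands, the longer words stood in 4.96% and 3.15% of the 2982 regions called in all 4 libraries, in windows of 201 bp. The G-box itself stood in 597 of them, and in 2 of the 7 *CRF* regions called in all 4 libraries (*CRF3* and *CRF4*). The *CRF5* and *CRF6* regions were called in 3 libraries only.

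A second set of sequences linked pairs of *CRF* genes. Among 55 pairs of regions, the longest run of bases in common had a median of 8 bp. The 3 longest runs, of 20, 16 and 13 bp, joined *CRF1* with *CRF2* at a pair of places and *CRF5* with *CRF6* at one. They are printed with the shared run in capitals, in the direction of the *CRF* gene. The first pair is coding sequence near the 3′ end of both genes. Of the others, the run upstream of *CRF5* lies in a coding exon of the neighbouring gene AT2G46308. That far upstream of *CRF2* lies in an exon of the non-coding RNA gene AT4G07180.
*CRF1* coding end, chr4:6794945-6795014, minus strand: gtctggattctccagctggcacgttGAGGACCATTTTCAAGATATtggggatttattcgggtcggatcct
*CRF2* coding end, chr4:12377698-12377767, plus strand: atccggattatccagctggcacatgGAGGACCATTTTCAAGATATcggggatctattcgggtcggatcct
*CRF1* far upstream, chr4:6798570-6798635, minus strand: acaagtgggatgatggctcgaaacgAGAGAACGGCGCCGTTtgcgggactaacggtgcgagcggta
*CRF2* far upstream, chr4:12373148-12373213, plus strand: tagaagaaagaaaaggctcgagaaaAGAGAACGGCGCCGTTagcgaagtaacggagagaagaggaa
*CRF5* upstream, chr2:19011152-19011214, plus strand: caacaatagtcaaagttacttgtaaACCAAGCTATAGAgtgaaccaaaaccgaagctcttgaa
*CRF6* upstream, chr3:22804682-22804744, plus strand: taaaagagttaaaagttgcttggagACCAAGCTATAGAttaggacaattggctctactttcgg

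The run of 16 bp occurred 2 times in the nuclear genome when both strands were read, once 2212 bp upstream of *CRF1* and once 2949 bp upstream of *CRF2*. Both places belong to regions called in 3 libraries only, which are not among the 2982 windows, so its absence from those windows was fixed beforehand. The coding run of 20 bp also occurred 2 times in the nuclear genome, both times in these genes, and the run of 13 bp occurred 6 times. A shared run describes the sequence under the peaks and does not show that a factor binds there.

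Peaks were found at some members in every library and at others in none. *CRF1*, *CRF2*, *CRF3*, *CRF4* and *CRF10* had a summit in their window in all 4 libraries, 5 of 10 members, against 14.9% of all protein-coding genes. *CRF5* and *CRF6* had one in 3 libraries and lacked it in BRIP1 replicate 1, the shortest list. With them, 7 members had a summit in both BRIP2 libraries, against 26.7% of genes. *CRF7* had a summit in BRIP2 replicate 2 alone, while *CRF8* and *CRF9* had none in any library, as did 60.4% of genes. Without BRIP1 replicate 2, whose antibody entry is unclear, the same 5 members had a summit in all remaining libraries, against 15.5% of genes. Leaving out a library cannot remove a member from this count, so it could only stay or rise.

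**Figure D1:**
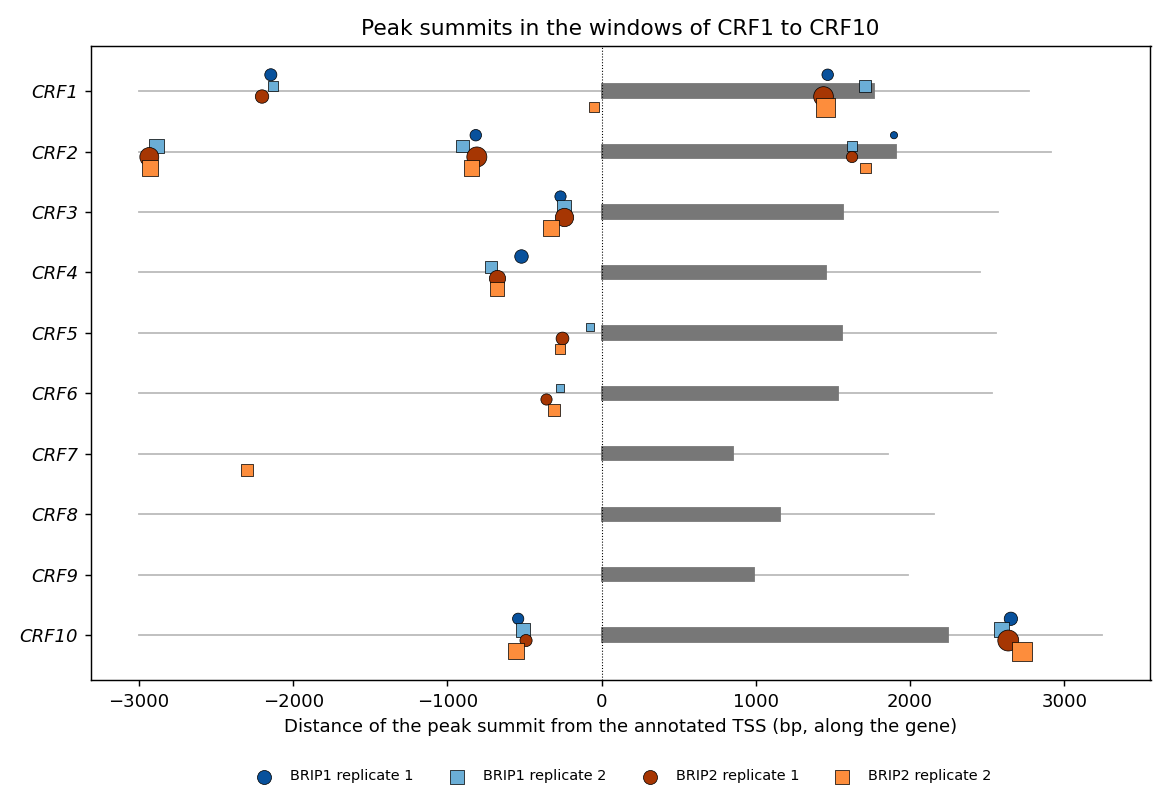
Positions of peak summits along the *CRF* genes, in bp from the annotated TSS in the direction of transcription, with grey bars for the gene, thin lines for the window and 1 point per summit. Colour and shape give the library and a larger point a higher fold. Summits of *CRF3* to *CRF6* lie upstream, those of *CRF1*, *CRF2* and *CRF10* lie on both sides of the gene or near its 3′ end, and *CRF8* and *CRF9* have none.

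The members differ in the gap to the next protein-coding gene upstream, whose median was 960 bp over all protein-coding genes. Non-coding genes were not counted, and the gap of *CRF2* holds the non-coding RNA gene AT4G07180. The gap was 3488 bp at *CRF1*, 6783 bp at *CRF2*, 12739 bp at *CRF3*, 4535 bp at *CRF4* and 6358 bp at *CRF10*. These are the members with a summit in every library. At the others the gap was 106 bp (*CRF5*), 893 bp (*CRF6*), 3079 bp (*CRF7*), 29 bp (*CRF8*) and 976 bp (*CRF9*). A wide gap went with more peaks across the genome: 21.6% of genes with a gap of 3000 bp or more had a summit in all 4 libraries, against 13.3% of the rest. The part of gene spacing in the difference between members was not tested.

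*CRF3* and *CRF4* had a single region each, in the promoter. *CRF3* (AT5G53290) has been linked to lateral root formation in the cold. Its region ran from 21619279 to 21620207 on chromosome 5, with intergenic summits 243 to 327 bp before the TSS. BRIP1 gave folds of 2.25 and 2.73, and BRIP2 gave 3.39 and 3.09. Both BRIP2 values lay above both BRIP1 values, and the difference of the mean log2 folds was 0.39 ± 0.15 (SE), or 0.25 without BRIP1 replicate 1. The G-box of *CRF3*, printed above, lay inside the span of its summits.

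*CRF4* (AT4G27950) is known for a part in freezing tolerance and nitrogen uptake. Its region, 13910732 to 13911862 on chromosome 4, had intergenic summits 523 to 715 bp before the TSS. The BRIP1 folds of 2.59 and 2.395 stood against BRIP2 folds of 3.03 and 2.76, a log2 difference of 0.22 ± 0.09 (SE). The groups did not overlap, but the gap between the nearest values of each protein was smaller than the gap between the BRIP2 replicates. The G-box of *CRF4* stood just upstream of the farthest summit. The GC content of this window was 29.9%, the lowest of the *CRF* regions, against 46.3% at *CRF3* and a median of 36.3% over the 2982 regions.

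*CRF1*, *CRF2* and *CRF10* had peaks at several places, including their 3′ ends. *CRF1* (AT4G11140), a single-exon gene of 1769 bp, had its strongest region at the end of the coding sequence, 6794411 to 6795231 on chromosome 4. Summits lay 1439 to 1706 bp past the TSS. In 3 libraries the summit base was coding, and in BRIP1 replicate 2 it was in the 3′ UTR. The last 60 bases of the *CRF1* coding sequence under this region hold AATATCT, the core of the evening element of clock-controlled genes, here read on the opposite strand and given in capitals. The word also stood in the *CRF3* region, printed above, and in 7.85% of the 2982 regions.
*CRF1* last coding bases, chr4:6794930-6794989, minus strand: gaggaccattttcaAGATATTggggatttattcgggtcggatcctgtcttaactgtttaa

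At the *CRF1* 3′ region the BRIP1 libraries had folds of 2.28 and 2.35, and the BRIP2 libraries 3.62 and 3.57. Replicates differed little from each other, and the BRIP2 mean was 1.55 times the BRIP1 mean (log2 difference 0.64 ± 0.02, SE). This was the largest difference between the proteins among the 7 *CRF* regions called in all 4 libraries. Behind these folds stood pileups of 73 fragments (57.2 to 91.8, 95% Poisson interval) and 98 fragments (79.6 to 119) for BRIP1. For BRIP2 they were 117 fragments (96.8 to 140) and 88 fragments (70.6 to 108). These intervals cover counting error only. They are wide beside the SE of 0.02, which rests on 2 close values per protein and understates the uncertainty of the difference. The pileup of BRIP2 replicate 2 lay between those of BRIP1, while its control was the lowest, 23.9 fragments against 31.5 and 41.2 for BRIP1 and 31.6 for BRIP2 replicate 1.

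Upstream, *CRF1* had a weaker region 2131 to 2202 bp before its TSS, at 6798378 to 6798877, which lacked a peak in BRIP2 replicate 2. The BRIP1 folds were 2.37 and 2.09, and that of BRIP2 replicate 1 was 2.57. The TSS nearest to these summits was that of *TUF*, which encodes subunit E1 of the vacuolar proton pump, and not that of *CRF1*. A summit 48 bp before the *CRF1* TSS was called in BRIP2 replicate 2 alone, with a fold of 2.06. The other 3 libraries had no peak there.

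*CRF2* (AT4G23750), linked like *CRF3* to lateral roots, had 3 regions on chromosome 4. The middle region, 12375024 to 12375625, had intergenic summits 809 to 903 bp before the TSS with BRIP1 folds of 2.28 and 2.47 and BRIP2 folds of 3.68 and 2.89. BRIP2 was higher in both libraries, by 0.46 ± 0.18 (SE) on the log2 scale, and BRIP2 replicate 1 stood well above the others. Without that library the difference was 0.285. The region at the 3′ end, 12377578 to 12378291, had the lowest folds among the *CRF* regions of all 4 libraries. BRIP1 had 1.68 and 2.09 there, BRIP2 2.25 and 2.104 (log2 difference 0.22 ± 0.16, SE), and the nearest values of the proteins were almost equal. The difference was 0.06 without BRIP1 replicate 1 and 0.37 without BRIP1 replicate 2. The summits were coding in 2 libraries, just past the run shared with *CRF1*, and in the 3′ UTR in the others. The fold of 1.68 was at percentile 0.467 of its list, below the lowest fold called at background in that list, 1.69.

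The far region of *CRF2*, 12372953 to 12373421, lay 2887 to 2933 bp before the TSS and was without a peak in BRIP1 replicate 1. The fold was 2.75 in BRIP1 replicate 2 and 3.49 and 3.05 in the BRIP2 libraries. Summits fell in an exon of the long non-coding RNA gene AT4G07180, which overlaps AT4G07185, another non-coding RNA gene. *CRF2* was the nearest protein-coding gene by TSS in all 3 libraries, and one or the other RNA gene was nearest among all genes. The stretch printed above for this region holds the run of 16 bp shared with *CRF1*, and the window had a GC content of 51.7%, the highest of the *CRF* regions.

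*CRF10* (AT1G68550), on chromosome 1, had the highest fold of the family, and it lay past the gene. The region of 25724613 to 25725552 had summits 348 to 481 bp beyond the 3′ end. BRIP1 reached 2.56 and 2.87 there, and BRIP2 reached 3.84 and 3.60, a log2 difference of 0.46 ± 0.10 (SE) with no overlap. The TSS nearest to these intergenic summits was still that of *CRF10*. Of the 10 motifs searched, none stood in the 201 bp around its centre. The middle 101 bp are printed in the direction of *CRF10*, all in lower case because no searched motif is in them.
*CRF10* past the 3′ end, chr1:25725005-25725105, minus strand: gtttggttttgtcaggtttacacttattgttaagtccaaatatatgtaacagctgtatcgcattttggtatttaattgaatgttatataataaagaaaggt

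The promoter region of *CRF10*, 25727515 to 25728436, was the exception to the order of the proteins. Its summits lay 490 to 555 bp before the TSS, with BRIP1 folds of 2.25 and 2.704 and BRIP2 folds of 2.38 and 2.97. The values of the proteins interleaved, and the log2 difference of 0.11 ± 0.21 (SE) was smaller than its error. *CRF2* and *CRF10* each had at least 2 regions of all 4 libraries in the window, which 1.74% of protein-coding genes had.

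*CRF5* and *CRF6*, a pair of genes whose joint loss has been reported to stop embryo development, had weaker promoter peaks. *CRF6* (AT3G61630) also delays leaf ageing under stress. Its region was 22804453 to 22805146 on chromosome 3, with summits 268 to 358 bp before the start of the gene record, or 450 to 540 bp before the annotated transcript. The fold was 1.81 in BRIP1 replicate 2 and 2.24 and 2.35 in the BRIP2 libraries. The region at *CRF5* (AT2G46310), 19011012 to 19011478 on chromosome 2, had folds of 1.92 in BRIP1 replicate 2 and 2.48 and 1.98 in the BRIP2 libraries. Of these 6 folds, 5 lay between percentiles 5.23 and 28.5 of their own lists. At *CRF5* the summits, 76 to 271 bp before the TSS, lay in or beside the short neighbouring gene AT2G46308, whose TSS was the nearest in every library. Both regions rest, on the BRIP1 side, on the library whose antibody entry is unclear. Without it, they were BRIP2 regions alone.

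*CRF7* (AT1G22985) and *CRF8* (AT1G71130) encode short CRFs, with coding sequences of 480 and 486 bp against 864 to 1065 bp for the others. The only peak in the *CRF7* window had a fold of 2.35 in BRIP2 replicate 2, 2297 bp before the TSS and nearer to the TSS of *HIPP22*, a gene for a heavy-metal-binding protein. At *CRF8* and *CRF9* (AT1G49120) no summit was called in any window, which says that none passed the caller's threshold, where the lowest fold called at background was 1.59 to 1.73.

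**Figure D2:**
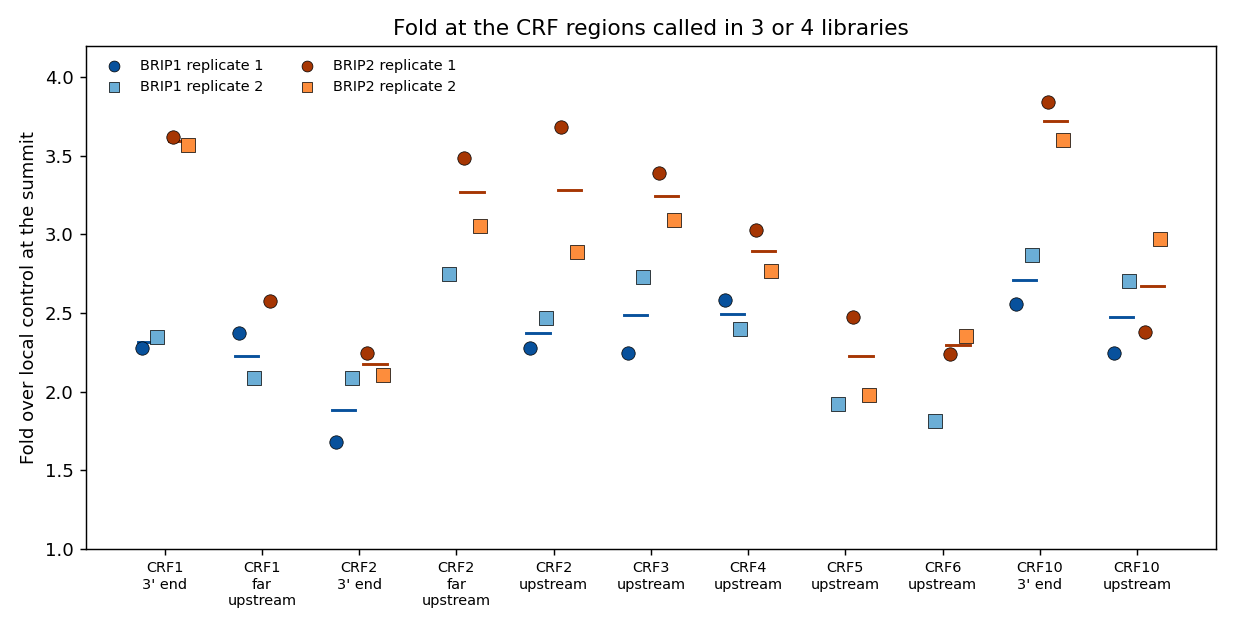
Fold at the summit relative to the local control (linear axis from 1, where the pileup equals the control) for each *CRF* region called in 3 or 4 libraries. Points are single libraries and short lines are means of 2 libraries where both were called. BRIP2 points lie above BRIP1 points in 6 of the 7 regions of all 4 libraries, and interleave with them upstream of *CRF10*.

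The fold was higher for BRIP2 than for BRIP1 at most of these regions. In 6 of the 7, both BRIP2 libraries exceeded both BRIP1 libraries, against 60.7% of the 2982 regions, and both BRIP2 libraries were lower in none of the 7, against 4.12%. The median log2 difference was 0.39 over the *CRF* regions (range 0.11 to 0.64) and 0.23 over all regions (quartiles 0.09 and 0.35). For a single region the exact permutation test over the 4 libraries gave p = 0.333 (two-sided) at the 6 regions without overlap, the smallest p that 2 against 2 allows. At the *CRF10* promoter the exact test gave p = 0.667. Without BRIP1 replicate 2, whose antibody entry is unclear, the 7 differences ran from 0.16 to 0.66. Both BRIP2 folds then exceeded the remaining BRIP1 fold in all 7, against 77.5% of the 2982 regions. The 6 regions without overlap had to meet this looser rule, so only the *CRF10* promoter could change the count. The background of the BRIP1 libraries was higher than that of the BRIP2 libraries, and its part in the higher BRIP2 folds was not tested.

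**Figure D3:**
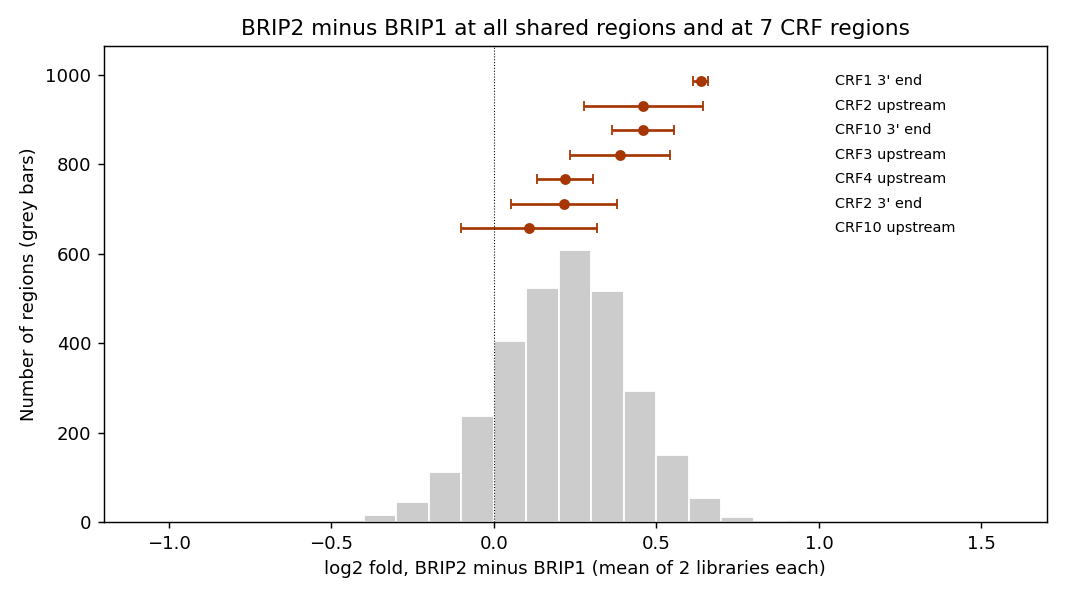
Difference between BRIP2 and BRIP1 in the mean log2 fold. Grey bars count the 2982 regions called in all 4 libraries, and the red points are the 7 *CRF* regions with their standard error (n = 2 libraries per protein), stacked in rows with the vertical position carrying no value. All 7 points lie above 0, from 0.11 to 0.64, on the same side as the bulk of all regions, whose median is 0.23.

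Ranked by the BRIP2 mean, the order of the 7 regions was the *CRF10* 3′ region (3.72 ± 0.17, SD, n = 2), the *CRF1* 3′ region (3.60 ± 0.04), *CRF2* upstream (3.29 ± 0.56) and *CRF3* (3.24 ± 0.21). Then came *CRF4* (2.90 ± 0.19), *CRF10* upstream (2.68 ± 0.42) and the *CRF2* 3′ region (2.18 ± 0.10). Among the first 4, neighbours in this order could not be separated beyond the spread of 2 libraries, nor could *CRF4* from *CRF10* upstream. Compared within each of the 4 libraries, the *CRF10* 3′ region was above the *CRF1* 3′ region, though only by 3.60 against 3.57 in BRIP2 replicate 2. The values of *CRF3* did not overlap those of *CRF4*, nor did those of *CRF10* upstream overlap those of the *CRF2* 3′ region. By the BRIP1 mean the *CRF10* 3′ region was again first (2.71 ± 0.22) and the *CRF2* 3′ region again last (1.88 ± 0.29), whereas the *CRF1* 3′ region came next to last (2.31 ± 0.05). The median over the 7 regions was 2.48 for BRIP1 and 3.24 for BRIP2, against 2.75 and 3.24 over all 2982 regions. Their median length was 922 bp, against 883.5 bp. Within its own list, the median *CRF* peak stood at percentile 27.9 and 45.5 of the folds for BRIP1 and at 70.4 and 59.3 for BRIP2. The lists differ in length, from 3637 to 7877 peaks, so a percentile in one is not equivalent to the same percentile in another. The matching percentiles of the 2982 regions are not given.

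Of the other words searched, some stood in these regions and some did not. For type-B response regulators only the word AGATNCG was searched, and no shorter form of their site. It stood in none of the 7 regions and in 6.34% of the 2982. The W-box TTGACC, read by WRKY factors, stood upstream of *CRF2* and *CRF4*, against 13.7% of all regions. Among the regions of 3 libraries it stood upstream of *CRF6*. The word TGGGCC of TCP factors stood in none of the 7, against 7.91%, but in both far upstream regions that share the run of 16 bp, at *CRF1* and *CRF2*. A match is a description of the letters, not a site, and its absence says only that they are not in the window of 201 bp on either strand.

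The limits of the window decided some of these counts. The far region of *CRF2* was just inside, with summits at most 2933 bp before the TSS. Just outside, *CRF10* had summits 3051 to 3120 bp before its TSS in all 4 libraries, and *CRF10* was the nearest protein-coding gene. The folds were 3.14 and 3.65 for BRIP1 and 3.55 and 3.26 for BRIP2, so the proteins interleaved there. Both BRIP1 folds were above those of the *CRF10* 3′ region, which ranked first by the BRIP1 mean among the regions inside the windows. Peaks past the 3′ end of *CRF5*, 768 to 847 bp beyond the window, were called in all 4 libraries with folds of 2.43 to 3.26, and their nearest TSS was that of AT2G46320. At *CRF8* the nearest peaks of all 4 libraries lay 4511 to 4589 bp before the TSS, beside *AT1G71110*, with folds of 2.21 to 3.71.

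The rest of the cytokinin pathway had peaks as well. Of 55 genes in 6 lists outside the CRF family, 18 (32.7%) had a summit in all 4 libraries and 22 had none, against 14.9% and 60.4% of all genes. Without BRIP1 replicate 2 the count, which could only stay or rise, was again 18, against 15.5% of all genes. Among the receptors, none of 3 had a summit in all libraries, and among the phosphotransfer proteins 1 of 6 (*AHP4*). Of the type-B regulators, 4 of 11 did, and at *ARR1* the summits were in the promoter, 130 to 299 bp before the TSS, with folds of 2.28 ± 0.06 for BRIP1 and 2.27 ± 0.12 for BRIP2 (SD, n = 2). Of the type-A regulators, negative feedback genes that cytokinin induces, 3 of 10 did. The highest was *ARR7*, with 3.54 ± 0.44 for BRIP1 and 4.06 ± 0.72 for BRIP2 at its start.

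Hormone turnover genes made up the remainder. Of 18 genes for synthesis and activation, 6 had a summit in all 4 libraries, among them *IPT5*, for a synthesis enzyme, with 2.38 ± 0.19 for BRIP1 and 3.23 ± 0.28 for BRIP2. The highest fold of the lists was at *LOG8*, of the family that releases active cytokinin, with 4.90 ± 0.22 and 4.53 ± 0.69. Of 7 genes for cytokinin oxidases, which degrade the hormone, 4 did: *CKX4*, *CKX5*, *CKX6* and *CKX7*. *CKX6* had 3.24 ± 0.16 for BRIP1 and 2.74 ± 0.37 for BRIP2, one of the cases with the higher mean in BRIP1. Not every peak is nearest to the gene counted. At *ARR18*, *IPT3*, *IPT9* and *CKX4* another protein-coding gene had the nearest TSS in all libraries. At *AHP4*, *ARR8*, *ARR10*, *LOG7* and *CKX5* this was so in some of the libraries. The related genes *CRF11* and *CRF12* had a summit in 3 libraries and in none. At *CRF11* the folds were 2.04 in BRIP1 replicate 2 and 3.13 and 2.85 in the BRIP2 libraries, 2653 to 2762 bp before the TSS.

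**Figure D4:**
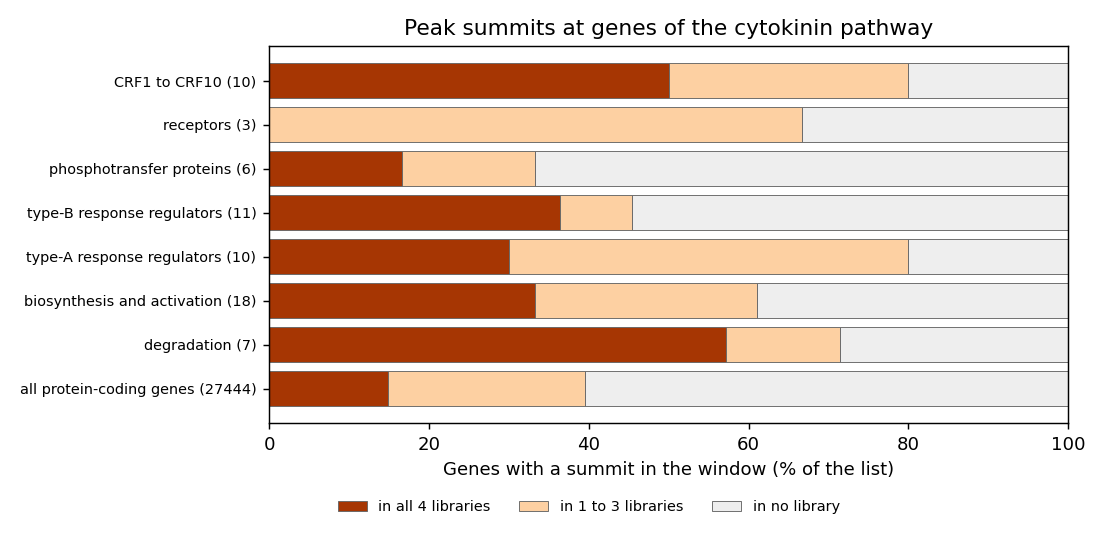
Share of genes in each cytokinin list with a peak summit in the window, in percent of the list, with the number of genes in brackets. Dark bars are genes with a summit in all 4 libraries, which are 5 of the 10 *CRF* genes, 57.1% of the degradation list, 0.0% of the receptors and 14.9% of all protein-coding genes.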

How the data were processed

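Peak lists of 4 libraries were used, grouped and numbered by their titles. The members and gene lists were chosen with earlier results of these data known. Bowtie, deepTools, MACS2 2.1.1 and TAIR10 are named in the submitters' processing notes, and the sources used here do not say which input served as control. The lists that the authors deposited give, per peak and library, an integer score (not used), the fold at the summit as a ratio, and −log10 values of p and q. The caller's formulas (fold as pileup plus 1 over control plus 1, Poisson p) were solved for pileup and control, and at least 99.9% of pileups were whole within 0.05. The lowest −log10 q was 2.04.

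Positions count from 1 on TAIR10.1, whose chromosomes contain every peak, and plastid peaks were left out. Where a library had several summits in a region, the strongest was used. Folds were compared on the log2 scale, by an exact two-sided permutation test of the 4 libraries. Named genes were all members, *CRF11* and *CRF12*, list genes with a summit in all 4 libraries, and the genes nearest to a *CRF* region. Alternatives were other windows, nearest TSS, −log10 q of at least 10, fold of at least 3, lists of equal length, 50% reciprocal overlap, summits within 150 bp, percentile ranks, a replicate block and each library left out. The titles call the replicates biological. Functions were tested on simulated lists. Python 3.11.15, pandas 2.3.3 and scipy 1.17.1 were used.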

Additional observations from a re-analysis of the deposited data

How the results depend on the processing

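The 5 members with a summit in all 4 libraries were the same with a window from 1000 bp upstream to the 3′ end (background 6.96%), with summits given to the nearest TSS (9.54%) and with lists of equal length (11.1%). With −log10 q of at least 10 the count was 2 (*CRF4* and *CRF10*, against 8.55% of genes), and with folds of at least 3 it was 0 (3.97%). With 1 library left out the count could not fall below 5, and it ranged from 5 to 7. Leaving out BRIP1 replicate 1 gave the 7 and added *CRF5* and *CRF6* (20.5%). A window of 5000 bp upstream and 3000 bp past the 3′ end, chosen after seeing the data, gave 7, adding *CRF5* and *CRF8* (23.0%).

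Both BRIP2 folds exceeded both BRIP1 folds in 5 of 6 regions with 50% reciprocal overlap (59.6% of all regions), in 3 of 4 with summits within 150 bp (59.2%), in 2 of 2 with −log10 q of at least 10 (59.9%) and in 5 of 7 by percentile rank (47.4%). The *CRF1* 3′ region, which had the largest difference, was not among the regions left by the rule of 150 bp or by that of −log10 q. The rule of 150 bp also dropped *CRF4* and the *CRF2* 3′ region. With 1 library left out at the same regions, an alternative chosen after seeing the data, it was 6 to 7 of 7 (66.3 to 77.6%). Leaving out a library loosens the comparison, so this count could not fall below 6. Of 46 alternative values of the 7 single differences, 44 kept their sign, but most of these signs were fixed beforehand. The replicate block and the rule of 150 bp left each value as it was. Where both BRIP2 folds exceed both BRIP1 folds, leaving out 1 library cannot change the sign. At the *CRF10* promoter, leaving out 1 library gave values from −0.0515 to 0.27, with −0.0245 without BRIP1 replicate 1 and −0.0515 without BRIP2 replicate 2. At the *CRF2* 3′ region these values ran from 0.06 to 0.37, at *CRF2* upstream from 0.285 to 0.64, at *CRF3* from 0.25 to 0.53, and at the *CRF1* 3′ region from 0.62 to 0.66.

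Replicate numbers did not pair the samples (r = 0.008 between the deviations of the libraries numbered 1, over 2982 regions). The replicate block left the *CRF1* 3′ difference at 0.64, with an exact sign-flip p = 0.5, the smallest that 2 pairs allow. Read totals are unknown, and a missing peak says only that none passed the caller's threshold.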
